A study of Macaca mulatta with 2 samples.

Results

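The microtubule genes described here were chosen by name from the deposited gene count table. Earlier results of these data were known at that choice, so the list is described and not tested. The list named 10 genes, namely the tubulin isotypes TUBB3, TUBA1A, TUBB, TUBB2A, TUBB2B and TUBB4A, the microtubule-associated proteins MAP2, MAPT and MAP1B, and STMN2. Of these, 8 have a row under their own symbol, out of 33618 rows in the table, and all 8 passed the filter of at least 1 CPM (reads scaled to equal library size) in either library, as did 18050 genes in all. TUBB2A has no row under its symbol. The row LOC722929 carries the gene ID that RefSeq lists as TUBB2A in the macaque assembly T2T-MMU8v2.0, and it is given beside the 8 members without being counted among them. TUBB2B could be matched to no row and was not analysed here. RefSeq also lists TUBB2A and TUBB2B as further names of TUBB, so the naming of these near-identical isotypes is uncertain in the macaque.

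The tissue was prefrontal cortex of infant rhesus macaques (Macaca mulatta) labelled as 28 days old. By the labels, the sevoflurane animal breathed 2.5 to 3% of this inhaled anesthetic for 4 h on about days 7, 14 and 28 after birth, and the results text of the study gives these days too, whereas its methods give later days for the second and the third exposure and place the sampling directly after the last one. What the control animal received is not stated in the sources used here. The design covers 3 animals per group, and 1 control and 1 sevoflurane library were analysed here, so there is no replicate of any value, no p-value is given, and every difference is one between 2 libraries and cannot be assigned to the exposure.

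Microtubules are hollow polymers of alpha- and beta-tubulin dimers that carry transport along axons and dendrites. Vertebrates make several isotypes of each tubulin from separate genes, and the mixture changes as neurons are born, extend processes and mature. Microtubule-associated proteins (MAPs) bundle and stabilize the polymer, with MAP2 in dendrites, tau (MAPT) mainly in axons and MAP1B in growing processes, while stathmins such as STMN2 bind free tubulin dimers and favour turnover in growth cones. The study used the class III beta-tubulin TUBB3, detected as Tuj1, as its marker of neurons.

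Reads assigned to genes numbered 16960880 for the control and 9839105 for the sevoflurane animal, a depth ratio of 1.72. Pairs of values below give the control library first and the sevoflurane library second. The 8 members took 0.677% and 0.530% of all reads. Both libraries contained brain cell markers, and all 13 neuron markers on the list had reads in both. The 7 Y-linked genes had 3 and 4308 reads in all. By the methods of the study its control animals were all female and the sevoflurane group held both sexes, so by these reads a female control was set against a male sevoflurane animal, and sex and exposure cannot be told apart. The values below are reads scaled by edgeR's TMM method to CPM, and each ratio is the log2 of sevoflurane over control CPM with a prior count of 2. Its 95% interval covers counting error only and not the variation between animals, and no molecular identifiers are named. Reads of different genes were not scaled by transcript length, so levels are compared between libraries and not between genes.

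Most of the neuronal microtubule members were lower in the sevoflurane library. Of the 8, 6 were lower with an interval wholly below equal expression (TUBB3, TUBB, TUBA1A, MAP1B, MAP2 and STMN2), TUBB4A was slightly higher by an interval that did not hold under every alternative, and the interval of MAPT included equal expression. Across all measured genes, 28.1% were lower and 28.4% higher by the same rule, and among the 8273 genes averaging 20 CPM or more, where every member lies, 37.7% were lower and 31.7% higher. The median log2 ratio of the 8 members was -0.42, beside -0.0048 over all measured genes and -0.04 over those with at least 20 CPM. With the reads of 12 neuron markers (the list without NRGN) as the reference in place of TMM, a choice made after the values were seen, all measured genes shifted upwards by 0.23. The median of the members was then -0.19, and the ratios of the same 6 lower members were -0.51 (TUBB3), -0.35 (TUBB), -0.34 (TUBA1A), -0.23 (MAP1B), -0.14 (MAP2) and -0.13 (STMN2), each with an interval below equal expression. With TMM, the differences were moderate in size. Only TUBB3 was at least 1.5-fold lower, with TUBB at the edge of that threshold (-0.58), and the same held for 11.9% of all measured genes and for 8.34% of the abundant ones. No member reached 2-fold in either direction, as 5.47% of measured genes did downwards and 7.56% upwards. In bulk tissue, fewer cells of a type and less RNA per cell cannot be told apart.

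**Figure D1:**
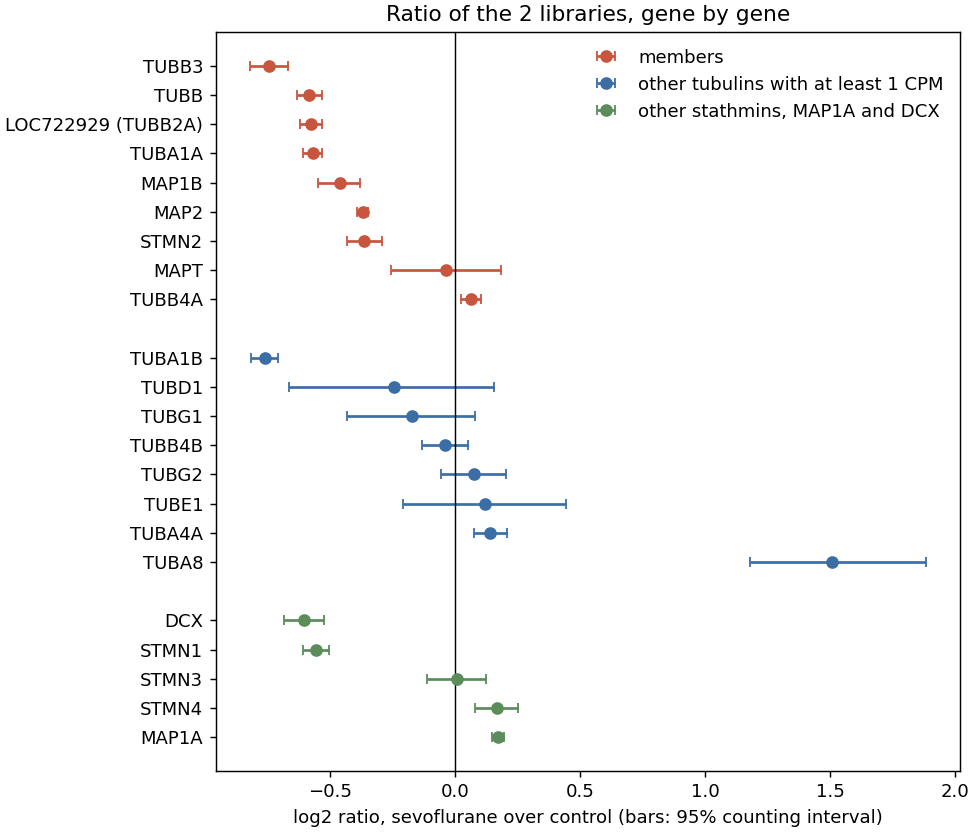
Each point is the log2 ratio of sevoflurane over control CPM for 1 gene and each bar its 95% counting interval, with members in red, the other tubulins with at least 1 CPM in blue, and the other stathmins, MAP1A and DCX in green. TUBB3 (-0.75) is the lowest member and TUBB4A (0.06) the highest, and TUBA8 (1.51) stands apart on the right.

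TUBB3, the neuron-specific beta-tubulin that is made from the birth of a neuron onward, had 5439 control reads and 1915 sevoflurane reads. This corresponded to 324 and 193 CPM, so the sevoflurane library held 59.6% of the control level. Its log2 ratio was -0.75 with an interval from -0.82 to -0.67, and 9.55% of all measured genes were as low or lower. It had the lowest ratio among the members, and its interval did not overlap that of any other member. MC1R, the gene before TUBB3 in the RefSeq order, had 8 and 4 reads, so few reads lay on that neighbour.

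TUBB, the broadly expressed class I beta-tubulin, had 656 and 438 CPM. The row matched to TUBB2A, a class II beta-tubulin abundant in neurons, had 841 and 563 CPM. Both were lower in the sevoflurane library by nearly the same ratio, -0.58 for TUBB (interval -0.64 to -0.53) and -0.58 for LOC722929 (interval -0.62 to -0.53). How reads that match more than 1 tubulin gene were counted is not given in the sources used here, and these coding sequences are alike, so the split of reads between the isotypes is uncertain.

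TUBB4A, a class IV beta-tubulin of mature neurons and oligodendrocytes, had 12672 and 7821 reads, or 754 and 788 CPM. Its ratio of 0.06 had an interval of 0.02 to 0.10, which is small beside the differences of the other beta-tubulin members. The interval included equal expression once the control was sampled down to the depth of the other library (ratio 0.04, interval -0.0049 to 0.09) and at an error of 0.1% (-0.0059 to 0.13), while the reference without NRGN gave a ratio of 0.29. The related TUBB4B, which is found in many tissues, had 157 and 152 CPM and an interval from -0.13 to 0.05 that included equal expression. TUBB1, a platelet isotype, had 4 and 3 reads and was under the filter.

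The level of TUBB4A stood beside a large difference in oligodendrocyte genes. All 12 oligodendrocyte markers were lower in the sevoflurane library, with log2 ratios from -1.90 (MOG) to -0.56 (MBP) and a median of -1.29, and their summed level was 4361 CPM in the control, against 2107 CPM in the other library. By the same interval rule, 28.1% of all measured genes were lower, and 37.7% of those averaging 20 CPM or more. None of the 12 markers was at 0 in either library. The part of oligodendrocytes in the level of TUBB4A was not tested.

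**Figure D2:**
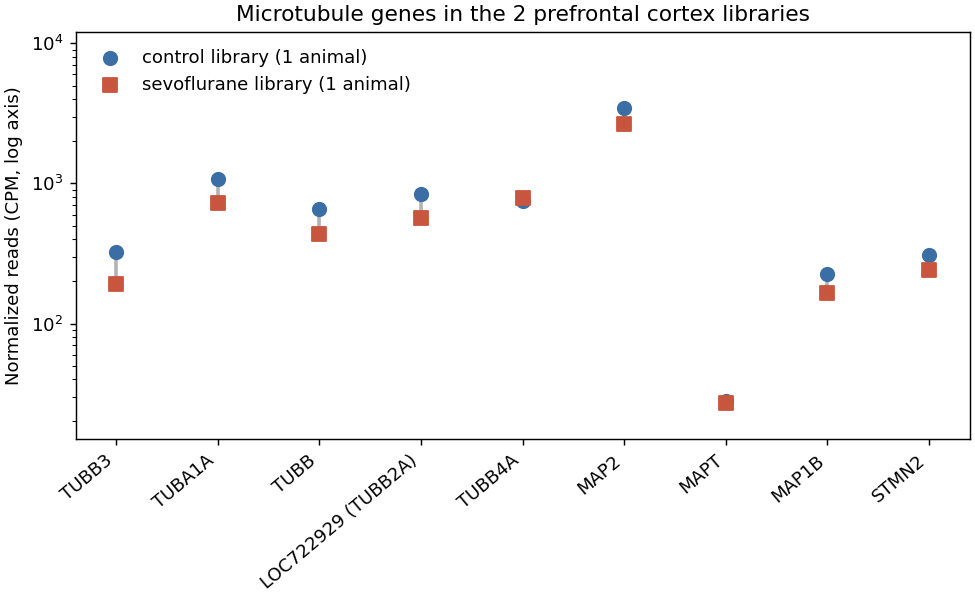
Normalized reads (CPM, log axis) of each member and of LOC722929, with the control library as circles and the sevoflurane library as squares, 1 animal each. TUBB3 goes from 324 to 193 CPM and MAP2 from 3464 to 2678, while the symbols of TUBB4A and MAPT nearly coincide.

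Of the alpha-tubulins, the member TUBA1A is the main isotype of young neurons and is mutated in malformations of the cortex. It had 18004 and 7158 reads, or 1071 and 721 CPM. Its log2 ratio was -0.57 (interval -0.61 to -0.53), which overlaps the intervals of TUBB and LOC722929. TUBA1B, a widely expressed isotype whose sequence is close to that of TUBA1A, was lower still, with 10749 and 3741 reads and a ratio of -0.76 (interval -0.82 to -0.71). RefSeq lists TUBA1C as a further name of TUBA1B, and reads may be shared between these copies. Summing TUBA1A and TUBA1B as 1 gene gave a ratio of -0.64.

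The other alpha-tubulins past the filter were higher in the sevoflurane library. TUBA4A, an isotype of mature neurons, had 292 and 322 CPM, with a ratio of 0.14 and an interval of 0.08 to 0.20. TUBA8, a divergent isotype, had 108 and 184 reads, which is 6.43 and 18.5 CPM. With a ratio of 1.51 (interval 1.18 to 1.88), it was the only alpha-, beta-, gamma-, delta- or epsilon-tubulin of the list that differed by at least 2-fold. TUBA3C and the row matched to TUBA3E had no read in either library, and TUBAL3 had 2 and 0. At the floor of 3 reads, levels of up to 0.179 and 0.302 CPM cannot be seen.

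The balance of isotypes within each library does not depend on the scaling between libraries. A share of reads is not a share of transcripts, since length was not taken into account, but the same gene can be followed from one library to the other. No row was matched to the beta-tubulins TUBB2B, TUBB6 and TUBB8 or to the alpha-tubulins TUBA1C and TUBA3D. The totals and shares of both families leave these genes out. TUBB3 made up 11.8% of the control beta-tubulin reads (exact Clopper-Pearson 95% interval 11.6 to 12.1) and 9.04% of those after sevoflurane (8.65 to 9.43). TUBB4A made up 27.6% (27.2 to 28.0) and 36.9% (36.3 to 37.6). TUBB went from 24.0% to 20.5%, LOC722929 from 30.8% to 26.4%, and TUBB4B from 5.74% to 7.14%. The shares of TUBB3, TUBB and LOC722929 were thus lower in the sevoflurane library, and those of TUBB4A and TUBB4B higher. A higher share is not by itself a higher level, since it also rises when other genes of the family are lower. TUBB4B had 157 and 152 CPM, with an interval that included equal expression.

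Ratios within pairs of genes restate the same reads without a total. For each TUBB read there were 1.15 and 1.80 TUBB4A reads, a log2 difference of 0.65 with an exact conditional interval of 0.58 to 0.71. The TUBB3 reads per TUBB read went from 0.493 to 0.441 (-0.16, interval -0.25 to -0.07). LOC722929 kept pace with TUBB, with 1.28 and 1.29 reads per TUBB read and an interval of -0.06 to 0.07. TUBB4A reads per TUBB3 read, the members with the highest and the lowest ratio, went from 2.33 to 4.08. This pair and the pairs without TUBB given below were chosen after the values were seen.

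Among the alpha-tubulins, TUBA1A held 53.3% and 50.1% of the reads, TUBA1B 31.8% and 26.2%, and TUBA4A 14.5% and 22.4%. TUBA4A reads per TUBA1A read went from 0.273 to 0.447, a log2 difference of 0.71 (interval 0.64 to 0.79). TUBA8 went from a share of 0.320% to one of 1.29%. Reads on the alpha-tubulins with a row numbered 0.736 and 0.674 per read on the beta-tubulins with a row. The log2 difference was -0.13 (interval -0.16 to -0.09). The alpha-tubulin rows summed to 2009.7 and 1438 CPM, and the beta-tubulin rows to 2732 and 2134 CPM.

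**Figure D3:**
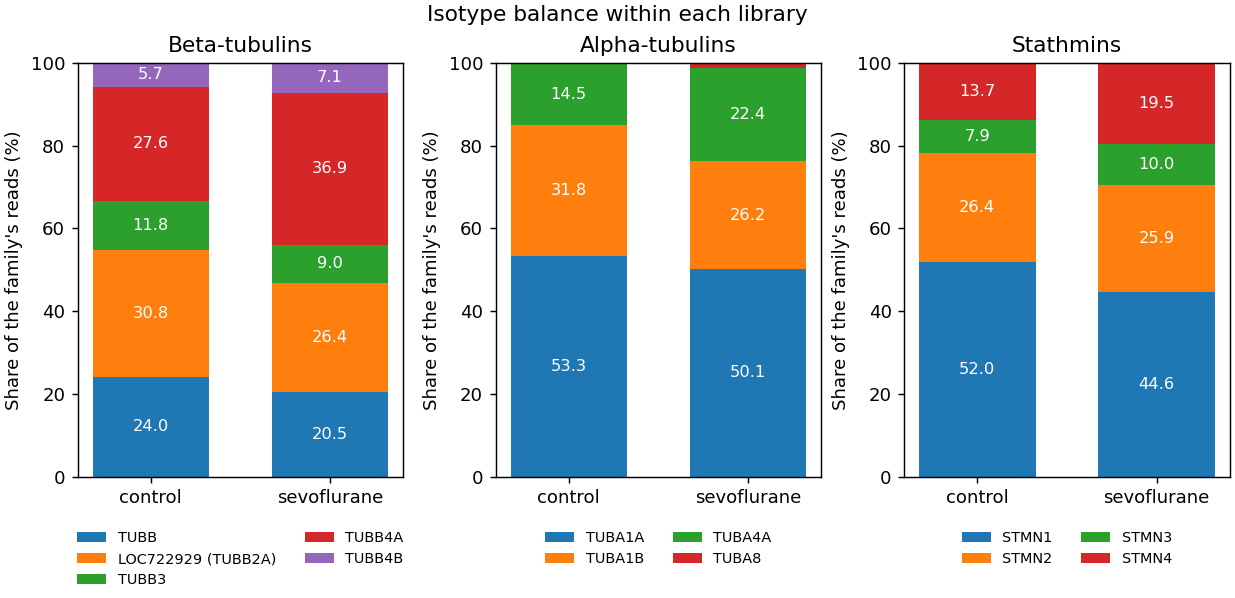
Stacked bars give each gene's share (%) of the reads on the beta-tubulins, alpha-tubulins and stathmins that have a row, in each library. The rarely read TUBB1 and TUBAL3 are not drawn. The TUBB4A, TUBA4A and STMN4 bars are taller in the sevoflurane library (36.9%, 22.4% and 19.5%) than in the control (27.6%, 14.5% and 13.7%).

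The remaining tubulins serve nucleation and centrioles and not the polymer wall. TUBG1 and TUBG2, the gamma-tubulins, and TUBD1 and TUBE1, the delta- and epsilon-tubulins, had ratios between -0.25 and 0.12. All 4 intervals included equal expression, so no difference was detectable at this depth. TUBG2 had 1255 and 780 reads, and TUBD1, the least read of the 4, had 155 and 77.

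MAP2, which spaces microtubules in dendrites, had 58204 and 26597 reads (3464 and 2678 CPM). Its ratio of -0.37 had a narrow interval of -0.39 to -0.35, so the sevoflurane library held 77.3% of the control level. MAP1B, a MAP of growing axons that is made early in development, had 3807 and 1631 reads, or 227 and 164 CPM. It was lower in the sevoflurane library, at 72.5% of the control level (ratio -0.46, interval -0.55 to -0.38). The RefSeq order places the microRNA gene MIR4803, with 30 and 6 reads, overlapping MAP1B.

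MAPT, which encodes tau, had 469 control reads and 270 sevoflurane reads, which is 27.9 and 27.2 CPM. The ratio was -0.04 and its interval, from -0.26 to 0.18, was the widest among the members and included equal expression. This interval did not overlap those of MAP2, MAP1B or STMN2, and MAPT reads per MAP2 read went from 0.00806 to 0.0102 (log2 difference 0.33, interval 0.11 to 0.55). MAPT is known as an abundant neuronal transcript, and its low read count in both libraries was not traced further, since the annotation used for counting is not given in the sources used here. RefSeq places non-coding RNA genes that overlap MAPT and TUBA1A, and whether the counting used strand is not given either.

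MAP1A, the partner of MAP1B that replaces it as neurons mature, was higher in the sevoflurane library (ratio 0.17, interval 0.15 to 0.20), with 35962 and 23927 reads. MAP1A reads per MAP1B read went from 9.45 to 14.7, a log2 difference of 0.64 (interval 0.55 to 0.72). DCX, doublecortin of migrating and immature neurons, had 271 and 178 CPM and a ratio of -0.61 (interval -0.69 to -0.53), close to those of TUBB and TUBA1A. Over the 17 genes listed as structural MAPs other than the members, 10 were lower, 4 higher and 3 had an interval that included equal expression. Their median was -0.24, and 28.1% of all measured genes were lower and 28.4% higher. The list includes the doublecortin-like kinases DCLK1 and DCLK2 and the autophagy proteins MAP1LC3A and MAP1LC3B, which were all lower. TPPP3, a tubulin polymerization protein, was the lowest with at least 5 CPM (-1.29; 161 and 38 reads), and MAP6D1, a relative of the stable tubule protein MAP6, the highest (0.91; 351 and 392 reads). MAP4, the ubiquitous MAP, had 3445 and 875 reads (-1.22) and was singled out after its value was seen.

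STMN2, the stathmin of growing neurites, had 5221 and 2397 reads, or 311 and 241 CPM. It was lower by a log2 ratio of -0.36 (interval -0.43 to -0.29), and its interval overlapped those of MAP2 and MAP1B. STMN1, the stathmin of proliferating and young cells, was lower by more (-0.56, interval -0.61 to -0.51; 613 and 416 CPM). STMN3 had 93.1 and 93.4 CPM, with an interval from -0.11 to 0.12. STMN4, a stathmin of neurons, was higher (162 and 182 CPM; ratio 0.17, interval 0.08 to 0.25). Within the family, STMN1 went from 52.0% to 44.6% of the reads and STMN4 from 13.7% to 19.5%, while STMN2 had 26.4% and 25.9% with overlapping intervals.

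Ordered by ratio, TUBB3 came first, followed by TUBB, LOC722929 and TUBA1A, whose intervals overlapped each other. MAP1B lay between this group and the pair of MAP2 and STMN2, and its interval overlapped those of TUBB, LOC722929, TUBA1A, MAP2 and STMN2. MAPT and TUBB4A overlapped each other and no other member.

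**Figure D4:**
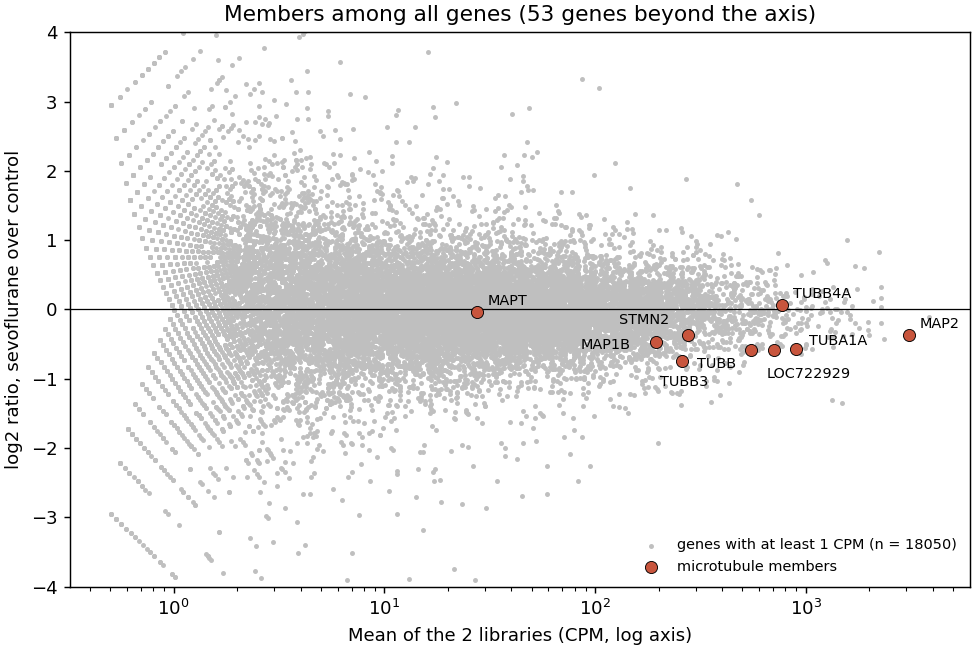
Log2 ratio of sevoflurane over control against the mean CPM of both libraries (log axis) for the 18050 genes with at least 1 CPM in grey, with the members and LOC722929 in red, and 53 genes lie beyond the axis. The members sit between -0.75 and 0.06, within the cloud of genes of similar level.

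The 142 measured genes of the microtubule lists other than the 8 members, neurofilaments left out, included 67 that were lower and 29 that were higher, with a median log2 ratio of -0.11. They include the other tubulins, MAPs, stathmins and motors besides the proteins that fold, nucleate, cut and modify tubulin. By the same rule, 28.1% of all measured genes were lower and 28.4% higher. Among the genes averaging 20 CPM or more, 37.7% were lower and 31.7% higher. The counts of the single lists below are to be read beside these shares. Of the 8 genes listed with the tubulin folding cofactors, 3 were lower and 1 was higher (median -0.11). TTC5 was the lowest on this list, with 379 and 133 reads (-0.75, interval -1.05 to -0.46). It is not a folding cofactor but the sensor that sets off decay of tubulin mRNA when free tubulin is in excess. TBCE, which helps to assemble the dimer, was the highest (0.23; 606 and 420 reads).

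Of the 9 genes of the gamma-tubulin ring complex, which nucleates microtubules, 4 were lower and none was higher (median -0.11). MZT2B, a small subunit of the complex, had 544 and 154 reads (-1.05), and CDK5RAP2, which activates it, had 325 and 224 reads, with an interval that included equal expression. Among the plus-end tracking proteins, which ride on growing ends, 9 of 17 were lower and 2 were higher (median -0.10). MAPRE1, the end-binding protein EB1, was the lowest (-0.57; 782 and 311 reads) and CLIP2 the highest with at least 5 CPM (0.21; 4861 and 3319 reads). MAPRE3, the neuronal end-binding protein, was listed at 0 reads in both libraries.

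Of the 6 severing enzymes, 4 were lower and none was higher (median -0.29). KATNAL1, a katanin, was the lowest, at -0.49 with 1051 and 441 reads. The enzymes that add or remove tyrosine, glutamate or acetyl groups on tubulin were divided, with 9 of 20 lower and 4 higher (median -0.11). SIRT2, a deacetylase of alpha-tubulin that is abundant in oligodendrocytes, was the lowest with at least 5 CPM (-0.56; 2470 and 992 reads). TTLL11, a polyglutamylase listed as LOC698836, was the highest (0.82; 662 and 694 reads). The list of kinases that act on tau and other MAPs also holds CDK5R1 and CDK5R2, which are activators of CDK5. Of its 16 genes, 6 were lower and 6 higher (median -0.04). CDK5, a tau kinase, was the lowest (-0.57; 1138 and 454 reads) and MAPK10 the highest (0.35; 6979 and 5252 reads).

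**Figure D5:**
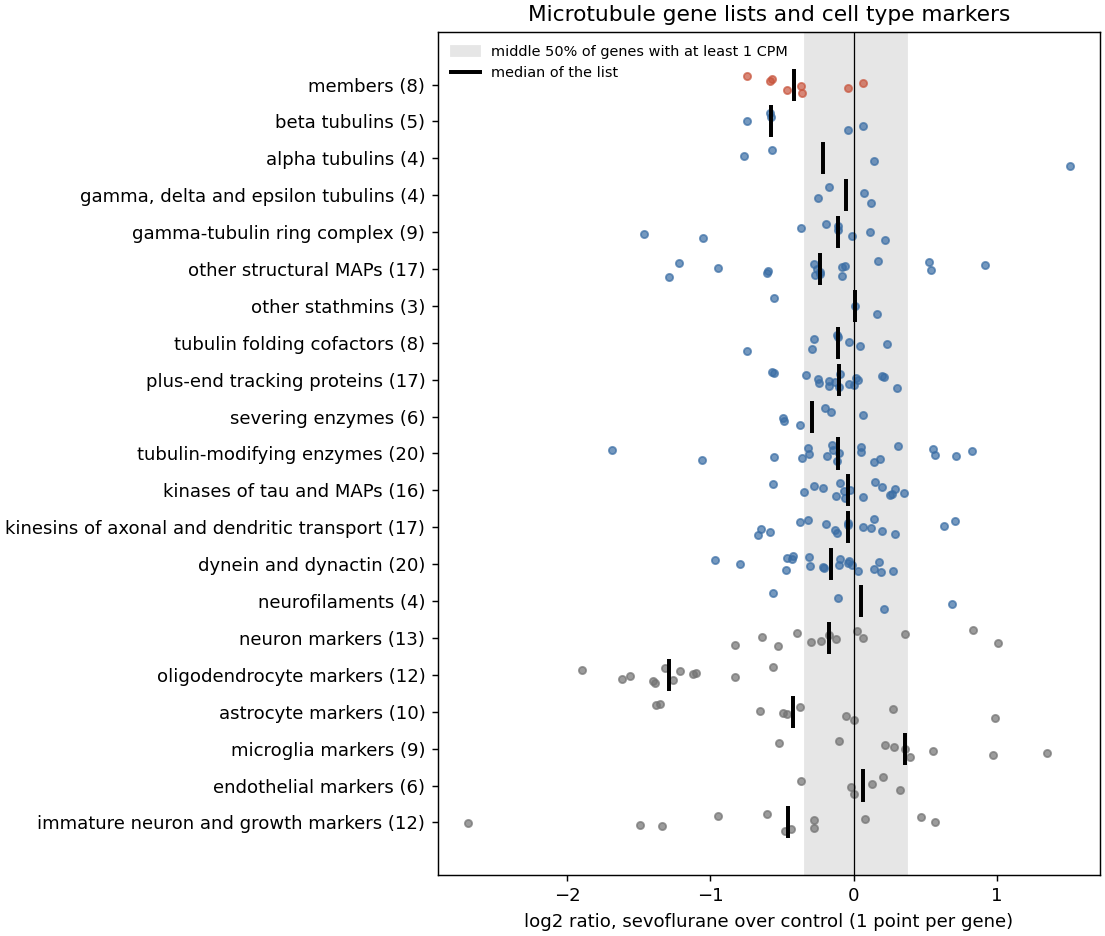
Each point is the log2 ratio of 1 gene with at least 1 CPM, black bars are list medians, the number of genes is in brackets, and the grey band holds the middle 50% of all measured genes. The medians of the members (-0.42), the beta-tubulins (-0.58) and the oligodendrocyte (-1.29), astrocyte (-0.42) and immature neuron (-0.46) markers lie to the left of the band, and those of the other lists lie inside it. The beta-tubulin list holds the members TUBB3, TUBB and TUBB4A besides LOC722929 and TUBB4B, so it mostly repeats genes already shown.

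Markers of the cell types in the tissue differed between the libraries as well. The share of all measured genes was 28.1% lower and 28.4% higher. For genes averaging 20 CPM or more it was 37.7% lower and 31.7% higher. Of the 13 neuron markers, 8 were lower and 4 higher, with a median of -0.17, and their summed level was 8113 and 8112 CPM. This sum rested on NRGN, a calmodulin-binding protein of dendritic spines, which had 17449 and 20754 reads (ratio 1.01), since the other 12 markers together had a ratio of -0.23. With these 12 markers as the reference, no member was 1.5-fold apart. UCHL1 had the lowest ratio of the neuron markers (-0.83). It was the only neuron marker with a ratio below that of TUBB3 (-0.75), the lowest member.

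Genes of immature neurons and growing processes were mostly lower, with 9 of 12 lower and 2 higher and a median of -0.46. Of all measured genes 28.1% were lower, and 37.7% of those averaging 20 CPM or more. NEUROD6, a transcription factor of young pyramidal neurons, had 1315 and 119 reads (-2.69), and TBR1, of deep-layer neurons, was the highest (0.57; 2347 and 2057 reads). SOX11 was the other higher gene (0.47, interval 0.23 to 0.72), and the interval of SOX4 included equal expression. The summed level of the list was 3682 and 2676 CPM, and DCX belongs to this list and to the MAPs. Astrocyte markers were lower for 7 of 10 genes (median -0.42; 7836 and 5800 CPM in sum), from AQP4 at -1.38 to SOX9 at 0.99. Of the 9 microglia markers 1 was lower and 4 were higher (median 0.36; 236 and 262 CPM in sum), from P2RY12 at -0.52 to C1QB at 1.35. Of the 6 endothelial markers 1 was lower and 1 was higher (median 0.06; 169 and 171 CPM in sum), from FLT1 at -0.37 to CDH5 at 0.32. None of these markers was at 0 in either library. The part of a changed cell make-up in the levels of the microtubule members was not tested.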

How the data were processed

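Total RNA of prefrontal cortex was sequenced on an Illumina platform, and the authors deposited raw whole-number counts of reads per gene without normalization, each of the 2 libraries filling 1 column. The submitters' processing notes name HISAT2 2.0.4, an aligner. The counting tool, genome build and annotation are not given in the sources used here, so no coordinates are printed, and no sequences were used.

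Columns were assigned to groups by the sample titles. The members and gene lists were chosen with earlier results of these data known. TMM factors (edgeR 4.0.16, R 4.3.3) were 0.991 (control) and 1.01 (sevoflurane), computed on genes with at least 1 CPM in either. Intervals of ratios were derived from Clopper-Pearson limits at 95%, and those of gene pairs from the exact conditional odds ratio (scipy 1.17.1, Python 3.11.15, numpy 2.4.6, pandas 2.3.3). Plots used matplotlib 3.10.9. With 1 library per group, no model could be fitted. A gene was counted as lower or higher when its interval excluded equal expression, and the folds of 1.5 and 2 were applied in addition. The rule for naming genes took all members, all tubulins and stathmins with reads, MAP1A and DCX, and the highest and lowest ratio of each list where the mean reached 5 CPM. An item that this choice names is left out here. Some genes are named outside this rule, among them MAP4, KIF5A, KIF5B, KIF5C, DYNC1H1, MAPRE3, SOX11, SOX4, NEFM, INA, PRPH and RefSeq neighbours of members. List symbols without a row were matched by RefSeq gene ID. Alternatives changed the scaling (library totals, upper-quartile factors, size factors of DESeq2 1.42.0, or neuron marker reads as reference), the prior count (0.5), the filter (5 CPM, or a single read), the depth of the control (sampled down to that of the other library), the treatment of near-identical genes (summed) and the interval (error of 0.1%). Simulated libraries with known changes were used to test the calculation.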

Additional observations from a re-analysis of the deposited data

How the results depend on the processing

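With the reference of neuron markers without NRGN, chosen after the values were seen, the median log2 ratio of the members was -0.19. Under every other alternative run it stayed between -0.47 and -0.37. These limits are the means of the 95% counting limits of MAP1B and MAP2, the middle members by ratio. They are not an interval of the median itself. The number of lower members was 6 throughout, and 7 with LOC722929 counted as a member, also added later. The number of higher members, 1, became 0 with the control library sampled down and with the stricter interval of 0.1% error, which is the small difference of TUBB4A. The number of members at least 1.5-fold apart, 1, became 2 with the control sampled down and with TUBA1A and TUBA1B summed, 0 with the reference without NRGN, and 0 at a threshold of 2-fold. The TUBB3 share of beta-tubulin reads was 12.6% (control) and 9.73% (sevoflurane) when only the beta-tubulin members and LOC722929 formed the total. Of 104 values of single members under the alternatives, 94 stayed within their counting interval, and the 7 members whose interval excluded equal expression kept their sign. The 10 others were all 8 members with the reference without NRGN, MAP2 with library totals and TUBA1A summed with TUBA1B. MAPT, whose interval included equal expression, turned from -0.04 to 0.01 with the control sampled down and to 0.19, outside its interval, with that reference. With the stricter interval 3327 genes were lower, against 5065 at 95%.

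No paired analysis was possible because a single library stands for each group, so no replicate was left out. Reads per coding length were not run, and TUBB2A and TUBB2B were not summed, since TUBB2B has no matched row.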

Other observations

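The motors that run on microtubules were divided between the 2 libraries. For comparison, 28.1% of all measured genes were lower and 28.4% higher. Among those averaging 20 CPM or more, 37.7% were lower and 31.7% higher. Of 17 kinesin genes of axonal and dendritic transport, 8 were lower and 6 higher in the sevoflurane library, with a median log2 ratio of -0.04. KIFAP3, the adaptor of kinesin-2, was the lowest, with 5173 control and 1920 sevoflurane reads (-0.67), and KIF1C the highest, with 1435 and 1387 reads (0.71). KIF5A, a neuronal kinesin-1 heavy chain, was singled out after its value was seen and had 22436 and 20544 reads (0.63, interval 0.60 to 0.66). Of the other kinesin-1 heavy chains, KIF5B had 4216 and 2603 reads and an interval that included equal expression (-0.01 to 0.13). KIF5C was higher, with 33401 and 21508 reads (0.12, interval 0.10 to 0.15). Of 20 genes listed with dynein and dynactin, 11 were lower and 3 higher (median -0.16). The list also holds the regulators PAFAH1B1 and NDEL1 and the adaptors BICD1 and BICD2, and both adaptors were among the higher genes. The light chain DYNLL1 was the lowest, with 1967 and 593 reads (-0.97), and the adaptor BICD1 the highest (0.28). DYNC1H1, the dynein heavy chain, had 45327 and 19927 reads (-0.43) and was also chosen after its value was seen.

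Neurofilaments, the intermediate filaments of axons, differed by subunit. NEFL, the light chain, was lower, with 12348 and 4941 reads (-0.56, interval -0.61 to -0.51), and NEFM was slightly lower (-0.11). NEFH, the heavy chain that is added late in development, had 395 and 377 reads and was higher (0.69, interval 0.48 to 0.90), as was INA (0.21). PRPH, a neurofilament of peripheral neurons, had 1 read in each library.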
